A study of Mus musculus with 9 samples.

Results

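The genes examined here copy the genome and divide the cell. A list of 53 cell cycle genes was set, comprising 32 genes of G2 and mitosis, 17 genes of S phase and 4 cyclins of G1, and each gene was represented by the brightest of the probe sets that carry its symbol alone. Of the 53 genes, 50 had such a probe set, among 22180 genes on the arrays (30 mitosis genes, 17 S phase genes and 3 G1 cyclins). Ccnb1 (the cyclin B1 gene) had no probe set, and Ncapg (a condensin subunit) and Ccne2 (cyclin E2) lay only on probe sets shared with a neighbouring gene, so no value is given for these 3 genes.

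The values came from macrophages of the colonic lamina propria, sorted as CD45+, CD11b+, F4/80+ cells from female C57BL/6 mice on Day 8 of acute colitis. Dextran sodium sulfate (DSS), which injures the colonic epithelium, was given at 3% in the drinking water for 5 days. It was followed by 3 days of water, and the paper treats Day 8 as the resolution phase. The 4 LysMCre;Arntfl/fl mice carried floxed Arnt alleles, and the 5 LysMCre mice had intact Arnt alleles, while both genotypes carried Cre, received DSS and shared cages. Arnt encodes the partner subunit of HIF-1α and HIF-2α, the transcription factors of the hypoxia response. LysM-Cre is active in neutrophils as well as macrophages, so Arnt can be deleted in both cell types in LysMCre;Arntfl/fl mice. Each array held the RNA of 1 mouse. The question of this comparison is whether cell cycle transcripts differ between colonic macrophages of LysMCre;Arntfl/fl and LysMCre mice on Day 8 of DSS colitis.

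Arnt itself measured 8.77, 8.60, 8.84 and 8.70 in the LysMCre;Arntfl/fl arrays, against 9.54, 9.44, 9.36, 9.31 and 9.31 in the LysMCre arrays, on the log2 scale of the RMA-normalized intensities used throughout. The genotypes did not overlap, and Arnt was lower in those of LysMCre;Arntfl/fl mice, with a log2 fold change of -0.66 (limma adjusted p = 0.0214). The Arnt difference kept its direction but was not called when LysMCre;Arntfl/fl replicate 2, 3 or 4 or LysMCre replicate 3 or 5 was left out (limma adjusted p = 0.0534, 0.0626, 0.0883, 0.0635 and 0.0607). It was also not called with the neutrophil or the B and plasma cell marker mean as a covariate (limma adjusted p = 0.382 and 0.0964). The macrophage marker list averaged 10.90 to 11.24 over the LysMCre;Arntfl/fl arrays and 11.06 to 11.46 over the LysMCre arrays, whereas the median of all values was 6.01. The genotype difference was tested with limma on all 34365 probe sets, and calls required a Benjamini-Hochberg adjusted p below 0.05 with more than a 1.5-fold difference. Of all probe sets, 0.151% were called lower and 0.143% were called higher in LysMCre;Arntfl/fl macrophages (52 and 49 probe sets). No cell cycle gene was among these 101 probe sets. When 1 array was left out, the number of probe sets called was lowest, at 1, when this was LysMCre replicate 5 and highest, at 149, when it was LysMCre replicate 4. It stayed within 1.5 times the full count for LysMCre replicate 4 and for LysMCre;Arntfl/fl replicate 1 only. The members are therefore described below by their values, with counts at an unadjusted p below 0.05. Of all 22180 genes, 6.69% reached this unadjusted level with lower and 6.74% with higher values in LysMCre;Arntfl/fl macrophages, which is the background for each such count below.

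In G1, D- and E-type cyclins release E2F factors from pocket proteins, and in S phase the MCM helicase unwinds the licensed origins and the genome is copied. The cell then enters G2 and mitosis, in which cyclin A, cyclin B and Cdk1 drive chromosome condensation, spindle assembly and division. Genes of the first program are known to be under E2F control through E2F elements. Promoters of the second program are bound by the DREAM and MuvB complexes through a cell cycle genes homology region (CHR). The CHR often lies beside CCAAT boxes, the sites of NF-Y. Tissue macrophages can divide in place under Csf1, and monocytes that enter an inflamed colon may divide for a short time before they mature.

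These promoter elements were present in the listed genes as follows. RefSeq promoter windows (GRCm38.p6, 250 bases before to 50 bases after the annotated start) matched 38 of the 50 measured genes by symbol, and 4 of these had 2 windows. Matches on either strand were counted for CHR (TTTGAA), the CCAAT box (CCAAT) and the E2F element (TTCGCGC, with TTCCCGC counted as a variant of it). CHR matches were found in 18 of 22 mitosis genes (81.8%) and 2 of 15 S phase genes (13.3%), and in 20.2% of the 27025 genes with a window. CCAAT boxes were found in 19 of 22 mitosis genes (86.4%), in 10 of 15 S phase genes (66.7%) and in 41.1% of all genes. The only G1 cyclin with a window, Ccne1, held none of the elements. E2F matches were more frequent in S phase genes, with 2 of 22 mitosis genes (9.09%), 8 of 15 S phase genes (53.3%) and 6.86% of all genes. A window with both a CHR match and a CCAAT box was held by 17 of 22 mitosis genes (77.3%), 2 of 15 S phase genes (13.3%) and 7.97% of all genes. Matches of different elements overlapped in 0 mitosis genes, 1 S phase gene and 0.215% of all genes. No factor was measured at these windows, and a match is a description of the letters only.

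**Figure D1:**
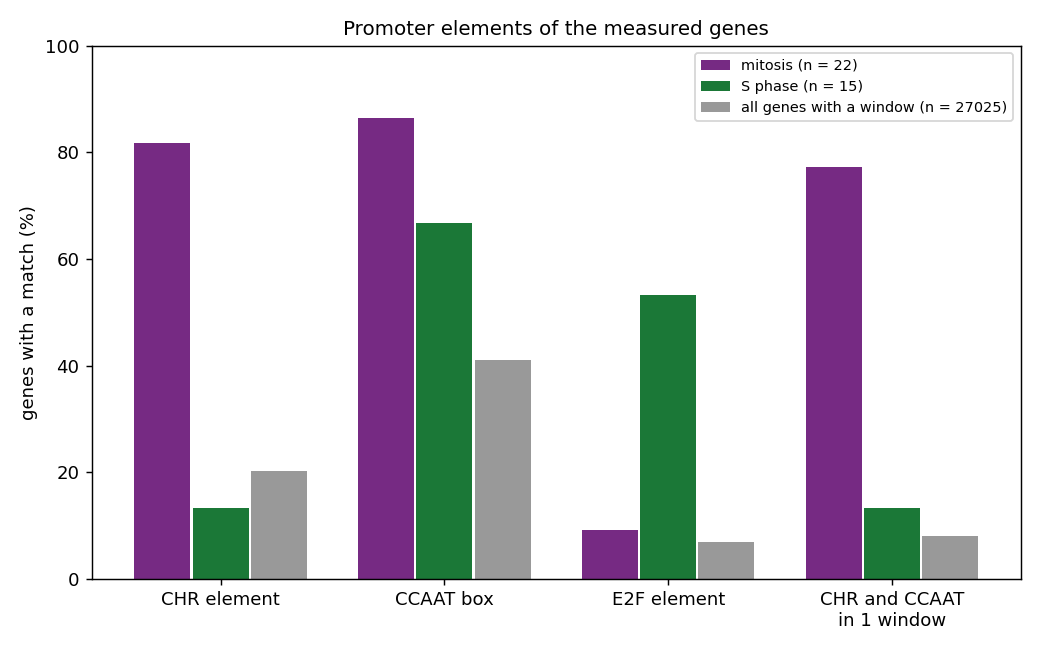
Percent of genes whose 300-base promoter windows held a match to each element, for the measured mitosis genes, the S phase genes and all genes with a window (n in the legend). CHR matches stood at 81.8% of the mitosis genes and 13.3% of the S phase genes, and E2F matches at 9.09% of the mitosis genes and 53.3% of the S phase genes.

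The 150 bases before the start of 4 mitosis genes are shown because their CHR matches lie close to the start and downstream of a CCAAT box, an arrangement shared by genes with different roles (a topoisomerase, a spindle motor, a ubiquitin-conjugating enzyme and a kinase). Capitals mark CHR matches, CCAAT boxes and E2F elements, read on either strand. Top2a lies at chr11:99024190-99024339 (minus strand), Kif11 at chr19:37376232-37376381 (plus strand), Ube2c at chr2:164769779-164769928 (plus strand) and Cdk1 at chr10:69352913-69353062 (minus strand).
Top2a: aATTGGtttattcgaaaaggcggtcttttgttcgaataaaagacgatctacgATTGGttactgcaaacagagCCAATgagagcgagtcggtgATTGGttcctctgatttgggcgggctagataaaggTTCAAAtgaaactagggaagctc
Kif11: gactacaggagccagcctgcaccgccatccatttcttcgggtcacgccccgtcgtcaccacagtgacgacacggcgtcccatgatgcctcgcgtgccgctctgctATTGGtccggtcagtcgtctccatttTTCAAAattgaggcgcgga
Ube2c: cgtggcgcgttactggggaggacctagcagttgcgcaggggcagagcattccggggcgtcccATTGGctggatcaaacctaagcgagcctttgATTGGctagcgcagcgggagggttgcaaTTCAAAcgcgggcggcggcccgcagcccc
Cdk1: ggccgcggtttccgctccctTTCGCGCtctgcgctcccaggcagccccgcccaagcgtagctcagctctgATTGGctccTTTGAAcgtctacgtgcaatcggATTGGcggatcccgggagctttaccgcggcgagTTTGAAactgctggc
Top2a held 1 CHR match and 4 CCAAT boxes in this stretch, Kif11 held 1 and 1, Ube2c held 1 and 2, and Cdk1 held 2 and 2 with 1 E2F element upstream of them.

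The same stretch of 3 S phase genes is shown for contrast, since none of them held a CHR match there. Cdc6 lies at chr11:98908001-98908150 (plus strand), Mcm6 at chr1:128359706-128359855 (minus strand) and Uhrf1, in 1 of its 2 windows, at chr17:56303187-56303336 (plus strand). Capitals mark CCAAT boxes and E2F elements on either strand.
Cdc6: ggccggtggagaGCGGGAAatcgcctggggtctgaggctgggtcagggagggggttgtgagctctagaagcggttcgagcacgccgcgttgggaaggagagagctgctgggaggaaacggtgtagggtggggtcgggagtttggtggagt
Mcm6: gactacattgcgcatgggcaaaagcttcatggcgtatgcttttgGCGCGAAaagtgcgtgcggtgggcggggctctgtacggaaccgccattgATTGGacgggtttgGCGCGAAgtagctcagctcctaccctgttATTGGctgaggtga
Uhrf1: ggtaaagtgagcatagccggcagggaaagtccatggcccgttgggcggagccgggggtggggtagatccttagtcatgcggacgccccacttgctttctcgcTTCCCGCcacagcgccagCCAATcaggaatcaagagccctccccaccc
Cdc6 held 1 E2F element and 0 CCAAT boxes, Mcm6 held 2 and 2, and Uhrf1 held 1 and 1.

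Mitosis genes had lower means in LysMCre;Arntfl/fl macrophages throughout the list, although none passed the test adjusted over all probe sets. All 30 measured mitosis genes had a negative log2 fold change, with a median of -0.44 and a range of -0.96 (Ccna2) to -0.07 (Aurka). Over all 22180 genes, 48% had a negative log2 fold change, with a median of 0.01. An unadjusted p below 0.05 was reached by 20 of the 30 genes (66.7%), all lower in LysMCre;Arntfl/fl macrophages, against 6.69% of all genes lower and 6.74% higher. A fold change above 1.5 toward lower values was found for 8 of the 30 genes (26.7%) and for 1.46% of all genes. For 5 of the 30 genes (16.7%) every LysMCre;Arntfl/fl array lay below every LysMCre array (Ect2, Kif11, Top2a, Birc5 and Cenpf), as for 2.57% of all genes, whereas 0 mitosis genes and 3.04% of all genes lay the other way. By limma the smallest adjusted p of the list was 0.0558 (Top2a), and 12 of the 30 genes had an adjusted p below 0.2. Genes of one program vary together from mouse to mouse, so these counts do not rest on independent genes, and each array holds a bulk of sorted cells, in which fewer cells in cycle and less RNA per cycling cell cannot be told apart.

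**Figure D2:**
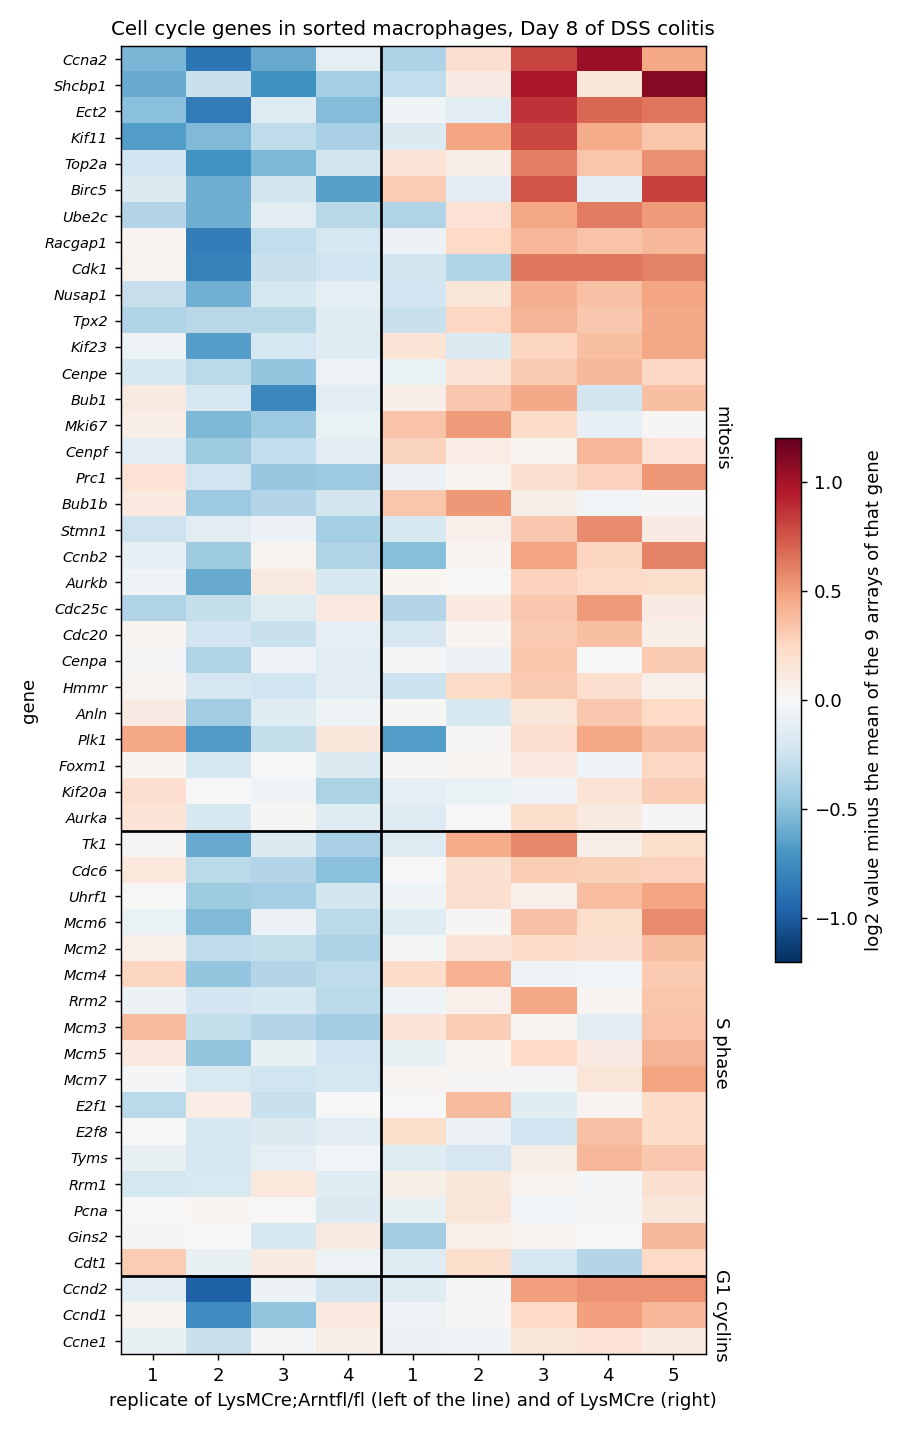
Log2 value of each of the 50 cell cycle genes in each array, as the deviation from that gene's mean over the 9 arrays, with the 4 LysMCre;Arntfl/fl arrays left of the vertical line and the 5 LysMCre arrays right of it. LysMCre;Arntfl/fl replicate 2 was the lowest array of all for 17 of the 30 mitosis genes, and the highest array was a LysMCre array for all 30.

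The cyclins and Cdk1 came first among the regulators of entry into mitosis. Ccna2, the cyclin of S phase and G2, measured 7.33, 7.01, 7.27 and 7.76 in LysMCre;Arntfl/fl arrays, against 7.51, 8.08, 8.69, 8.91 and 8.34 in LysMCre arrays. LysMCre replicate 1 lay within the range of the LysMCre;Arntfl/fl arrays and the other 4 LysMCre arrays lay above it. Its log2 fold change was the largest of the list (-0.96, standard error, SE, 0.26, 1.95-fold lower, limma adjusted p = 0.150). Cdk1, the kinase that starts mitosis, measured 7.45, 6.59, 7.13 and 7.16 in LysMCre;Arntfl/fl arrays and 7.18, 7.05, 8.04, 8.04 and 8.00 in LysMCre arrays. LysMCre replicates 3, 4 and 5 stood above every other array, while replicates 1 and 2 lay among the LysMCre;Arntfl/fl arrays (log2 fold change -0.58, SE 0.25, limma adjusted p = 0.408). Ccnb2, cyclin B2, and Cdc25c, the phosphatase that activates Cdk1, had log2 fold changes of -0.38 and -0.31 (unadjusted p = 0.0938 and 0.0880). Foxm1, a transcription factor of G2 and M genes, had -0.16. Of these 5 measured genes, 2 reached an unadjusted p below 0.05 and the genotypes overlapped for all 5.

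The mitotic kinases and the spindle checkpoint genes had log2 fold changes from -0.73 to -0.07. Birc5 (survivin), the subunit that places Aurora B on chromosomes, averaged 5.32 ± 0.25 in LysMCre;Arntfl/fl arrays (SD, n = 4) and 6.06 ± 0.46 in LysMCre arrays (SD, n = 5), and the genotypes did not overlap (log2 fold change -0.73, limma adjusted p = 0.194). Bub1 and Bub1b, proteins of the checkpoint that holds anaphase until chromosomes attach, had log2 fold changes of -0.45 and -0.40, and Aurkb had -0.33. In contrast, the kinases Plk1 and Aurka, which mature the spindle poles, differed by -0.16 and -0.07, less than their spread between arrays. Plk1 was the most variable of them, with an SD of 0.50 over the LysMCre;Arntfl/fl arrays and 0.45 over the LysMCre arrays, and its difference turned to 0.03 without LysMCre;Arntfl/fl replicate 2. In this group 4 of 6 genes reached an unadjusted p below 0.05.

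The anaphase-promoting complex, the ubiquitin ligase that ends mitosis, was represented by its partners Ube2c and Cdc20. Ube2c, its ubiquitin-conjugating enzyme, measured 6.75, 6.52, 6.97 and 6.78 in LysMCre;Arntfl/fl arrays and 6.74, 7.28, 7.57, 7.73 and 7.61 in LysMCre arrays. Only LysMCre replicate 1 lay within the range of the other genotype (log2 fold change -0.63, SE 0.19, limma adjusted p = 0.192). Cdc20, its activator, had a smaller difference of -0.26 (unadjusted p = 0.0617). At the kinetochore, where microtubules meet the chromosome, Cenpe (a motor) and Cenpf had log2 fold changes of -0.47 and -0.44 (limma adjusted p = 0.115 and 0.0970). The histone variant gene Cenpa, which marks the centromere, had -0.25.

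The 5 spindle genes had lower means, 4 of them at an unadjusted p below 0.05. Kif11 (Eg5), the motor that pushes the spindle poles apart, measured 6.32, 6.46, 6.69 and 6.60 in LysMCre;Arntfl/fl arrays and 6.82, 7.46, 7.79, 7.43 and 7.32 in LysMCre arrays. The genotypes did not overlap, and the log2 fold change was -0.85 (SE 0.17, 1.80-fold lower, limma adjusted p = 0.0636). Nusap1 and Tpx2, which bundle and nucleate spindle microtubules, had similar differences of -0.53 and -0.52. Without LysMCre replicate 1, both Kif11 and Tpx2 were called (limma adjusted p = 0.0373 each). Stmn1 (stathmin, which destabilizes microtubules) had -0.38 and Hmmr, a spindle and hyaluronan receptor protein, had -0.24.

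The midzone and cytokinesis genes held 3 of the 8 mitosis genes beyond 1.5-fold. Shcbp1, a midbody protein, measured 4.65, 4.98, 4.51 and 4.84 in LysMCre;Arntfl/fl arrays and 4.96, 5.35, 6.23, 5.39 and 6.34 in LysMCre arrays, and LysMCre replicates 3 and 5 stood above the rest (log2 fold change -0.91, SE 0.27, limma adjusted p = 0.186). Its mean over the 9 arrays lies below the median of all values, as for 6 mitosis genes in all, a range in which arrays resolve differences less well. Ect2, the exchange factor that activates RhoA at the cleavage furrow, measured 6.40, 6.06, 6.74 and 6.37 in LysMCre;Arntfl/fl arrays and 6.84, 6.76, 7.76, 7.59 and 7.53 in LysMCre arrays. The gap between the genotypes was narrow for Ect2, with LysMCre;Arntfl/fl replicate 3 just under LysMCre replicate 2 (log2 fold change -0.90, SE 0.22, limma adjusted p = 0.116). Its centralspindlin partners Racgap1 and Kif23 had log2 fold changes of -0.59 and -0.48, and Prc1, which crosslinks midzone microtubules, had -0.43. Anln (anillin) and the motor Kif20a differed least in this group, by -0.24 and -0.10. The Kif20a difference was 0.0060 when LysMCre;Arntfl/fl replicate 4 was left out.

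The chromosome structure genes included the proliferation marker Mki67 (Ki-67), which coats mitotic chromosomes. Mki67 measured 11.06, 10.44, 10.54 and 10.90 in LysMCre;Arntfl/fl arrays and 11.32, 11.49, 11.20, 10.88 and 10.99 in LysMCre arrays. Its highest arrays were LysMCre replicates 2 and 1, whereas those replicates were the lowest of LysMCre for Ccna2, Cdk1 and Ect2, and the genotypes overlapped (log2 fold change -0.44, SE 0.16, limma adjusted p = 0.292). Top2a, the topoisomerase that untangles sister chromatids, measured 6.30, 5.82, 6.01 and 6.33 in LysMCre;Arntfl/fl arrays and 6.70, 6.62, 7.15, 6.87 and 7.09 in LysMCre arrays. Every LysMCre;Arntfl/fl array lay below every LysMCre array, and the log2 fold change of -0.77 (SE 0.14, 1.71-fold lower) had an adjusted p of 0.0558 from limma, just above the threshold. A SAM-type d score, which adds a constant to each standard error, gave Top2a a q-value of 0.0492 and called no other cell cycle gene.

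**Figure D3:**
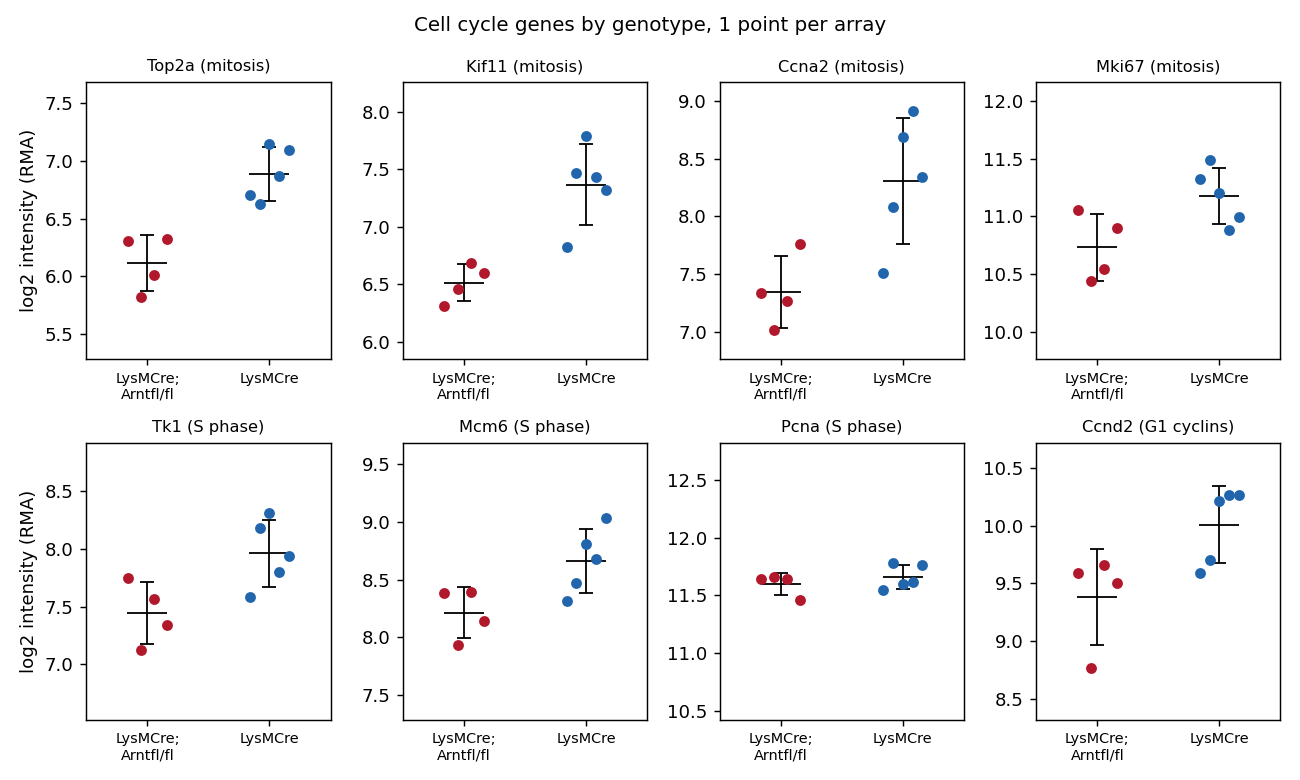
Log2 intensity of 8 cell cycle genes in each array (points), with the mean and SD of each genotype (bars), LysMCre;Arntfl/fl (n = 4) left of LysMCre (n = 5), each panel spanning the same height in log2 units. Top2a and Kif11 separated the genotypes, the other 6 genes overlapped, and Pcna differed by 0.06.

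S phase genes also had mostly lower means in LysMCre;Arntfl/fl macrophages, by smaller amounts. The log2 fold change was negative for 16 of the 17 genes and positive for Cdt1, with a median of -0.30 and a range of -0.52 to 0.12. An unadjusted p below 0.05 was reached by 9 genes (52.9%), all lower, against 6.69% of all genes. A fold change above 1.5 toward lower values was reached by 0 of them, against 1.46% of all genes. The genotypes did not overlap for 1 of the 17 genes (Rrm2, 5.88%), near the 2.57% of all genes with every LysMCre;Arntfl/fl array below every LysMCre array, and the smallest adjusted p was 0.151 (Cdc6, limma). Whether the mitosis and S phase genes differed in their shift was not tested.

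Licensing and firing of origins for replication divided its 3 genes. Cdc6, which loads the helicase at origins, measured 6.63, 6.17, 6.15 and 6.00 in LysMCre;Arntfl/fl arrays and 6.51, 6.68, 6.81, 6.78 and 6.77 in LysMCre arrays. LysMCre;Arntfl/fl replicate 1 lay within the LysMCre range and the other 3 lay below it, with a log2 fold change of -0.47 (SE 0.13). Without that array Cdc6 was called (limma adjusted p = 0.0423). Cdt1, its loading partner, had 8.00 ± 0.18 in LysMCre;Arntfl/fl arrays (SD, n = 4) and 7.88 ± 0.26 in LysMCre arrays (SD, n = 5). This difference of 0.12 was less than the spread between arrays, as was that of -0.03 for Gins2, a subunit of the active helicase. The Gins2 difference turned to 0.06 without LysMCre replicate 5 and to 0.02 without LysMCre;Arntfl/fl replicate 3.

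All 6 measured subunits of the MCM helicase had negative log2 fold changes, between -0.45 (Mcm6) and -0.29 (Mcm7), and 5 of the 6 reached an unadjusted p below 0.05 (Mcm3 did not). Mcm6 measured 8.38, 7.94, 8.40 and 8.14 in LysMCre;Arntfl/fl arrays and 8.31, 8.47, 8.81, 8.68 and 9.03 in LysMCre arrays, overlapping through LysMCre replicate 1 (SE 0.15, limma adjusted p = 0.267). Mcm5 measured 8.37, 7.78, 8.16 and 8.02 in LysMCre;Arntfl/fl arrays and 8.16, 8.28, 8.49, 8.35 and 8.66 in LysMCre arrays. For Mcm5, LysMCre;Arntfl/fl replicate 1 exceeded 3 of the LysMCre arrays (log2 fold change -0.30, SE 0.14, limma adjusted p = 0.422). Mcm2 and Mcm4 differed by -0.40 and -0.39, and Mcm3 by -0.31.

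The fork proteins differed from each other. Uhrf1, which carries DNA methylation over to the new strand, measured 7.59, 7.17, 7.18 and 7.37 in LysMCre;Arntfl/fl arrays and 7.54, 7.78, 7.65, 7.96 and 8.07 in LysMCre arrays (log2 fold change -0.47, SE 0.13, limma adjusted p = 0.167). The pair that overlapped was LysMCre;Arntfl/fl replicate 1 and LysMCre replicate 1. Pcna, the sliding clamp of the DNA polymerases, measured 11.64, 11.66, 11.64 and 11.46 in LysMCre;Arntfl/fl arrays and 11.55, 11.78, 11.60, 11.61 and 11.77 in LysMCre arrays. The genotypes overlapped for Pcna, whose log2 fold change was -0.06 (SE 0.09, limma adjusted p = 0.861).

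Of the enzymes that supply nucleotides, Tk1 and Rrm2 reached an unadjusted p below 0.05 and Tyms and Rrm1 did not. Tk1, the thymidine kinase of dividing cells, measured 7.75, 7.13, 7.56 and 7.34 in LysMCre;Arntfl/fl arrays and 7.58, 8.18, 8.31, 7.80 and 7.94 in LysMCre arrays (log2 fold change -0.52, SE 0.17, limma adjusted p = 0.231). Again LysMCre replicate 1 was the LysMCre array within the other genotype's range. Rrm2, the cell cycle-regulated subunit of ribonucleotide reductase, measured 6.63, 6.46, 6.50 and 6.37 in LysMCre;Arntfl/fl arrays and 6.64, 6.75, 7.16, 6.72 and 7.03 in LysMCre arrays. The genotypes were only narrowly separate for Rrm2 (log2 fold change -0.37, SE 0.12, limma adjusted p = 0.228). Its partner Rrm1 had -0.18, and the thymidylate synthase gene Tyms had -0.20. The factors E2f1 and E2f8, an activator and a repressor of S phase genes, had -0.22 and -0.21 with overlapping arrays.

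The G1 cyclins, which couple growth signals to S phase entry, all had negative log2 fold changes. Ccnd2 measured 9.59, 8.76, 9.66 and 9.51 in LysMCre;Arntfl/fl arrays and 9.59, 9.71, 10.22, 10.27 and 10.27 in LysMCre arrays (log2 fold change -0.63, SE 0.21, limma adjusted p = 0.256). For Ccnd2, LysMCre;Arntfl/fl replicate 2 stood well below all other arrays, and LysMCre replicates 3 to 5 stood above them. Ccnd1 measured 7.98, 7.20, 7.47 and 8.07 in LysMCre;Arntfl/fl arrays and 7.88, 7.96, 8.19, 8.44 and 8.34 in LysMCre arrays (log2 fold change -0.48, SE 0.19, limma adjusted p = 0.338). Ccne1, which acts after the D-type cyclins, measured 7.22, 7.04, 7.29 and 7.38 in LysMCre;Arntfl/fl arrays and 7.24, 7.26, 7.44, 7.49 and 7.42 in LysMCre arrays (log2 fold change -0.14, SE 0.09, limma adjusted p = 0.650). The 3 cyclins were all lowest in LysMCre;Arntfl/fl replicate 2 and all highest in LysMCre replicate 4.

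**Figure D4:**
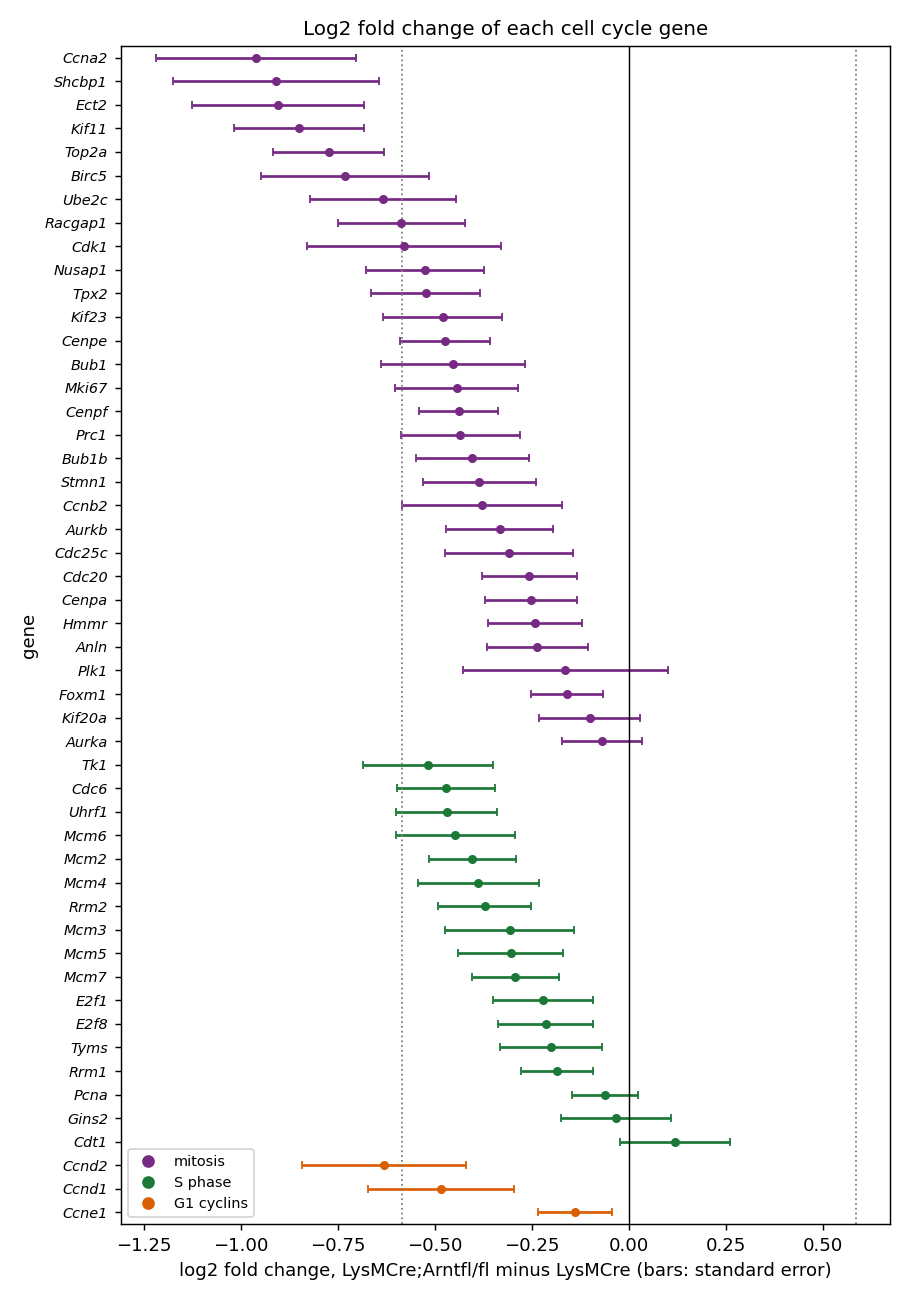
Log2 fold change of each cell cycle gene, LysMCre;Arntfl/fl minus LysMCre, with its limma standard error, coloured by list, and dotted lines at 1.5-fold. All 30 mitosis genes, 16 of 17 S phase genes and 3 of 3 G1 cyclins lay left of 0, and the widest differences were those of Ccna2 (-0.96), Shcbp1 (-0.91) and Ect2 (-0.90).

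Over all 50 measured genes, 49 had a negative log2 fold change, 31 (62%) were lower at an unadjusted p below 0.05 and 0 were called, against 48%, 6.69% and (of probe sets called lower) 0.151% over the whole array. Among the mitosis genes, the 18 genes with a CHR match had a median log2 fold change of -0.44 and the 4 genes with a window but no match had -0.50 (Birc5, Bub1, Cenpe and Nusap1). Among S phase genes, the 8 with an E2F match had a median of -0.31 and the 7 without had -0.22. These medians are descriptions of few genes and were not tested.

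The mice differed from each other within each genotype. The mean of the 30 mitosis genes was 6.79, 6.45, 6.64 and 6.69 in LysMCre;Arntfl/fl arrays and 6.80, 6.99, 7.29, 7.20 and 7.26 in LysMCre arrays. The genotypes were thus separate, but by 0.01 only, between LysMCre;Arntfl/fl replicate 1 and LysMCre replicate 1. The mean of the 17 S phase genes was 7.85, 7.57, 7.65 and 7.61 in LysMCre;Arntfl/fl arrays and 7.79, 7.97, 7.92, 7.92 and 8.15 in LysMCre arrays, and here the same 2 arrays overlapped. LysMCre;Arntfl/fl replicate 2 was the lowest of all 9 arrays for 17 mitosis genes and 6 S phase genes, whereas LysMCre replicate 5 was the highest for 10 and 7.

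Genes outside the list of 53 were read for the same phases. Of 43 further mitosis genes measured (46 listed), 38 had a negative log2 fold change (median -0.28) and 20 reached an unadjusted p below 0.05, all lower (46.5%, against 6.69% of all genes). The largest differences were those of Kif4 (-0.77), a chromokinesin, Nuf2 (-0.64), a kinetochore subunit, Kif15 (-0.60), a spindle motor, and Nek2 (-0.59), a centrosomal kinase with an adjusted p of 0.0592 from limma. Of 33 further S phase genes measured (36 listed), 26 had a negative log2 fold change (median -0.17) and 14 reached an unadjusted p below 0.05, all lower (42.4%), against 48% negative and 6.69% lower at that level over all genes. Gins1 (-0.66) of the active helicase, Chaf1b (-0.61) of chromatin assembly, Pole (-0.53), the leading strand polymerase, and Lig1 (-0.52), the ligase of Okazaki fragments, differed most. None of these genes was called.

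Inhibitors and upstream regulators had medians near that of all genes. The 7 CDK inhibitors had a median log2 fold change of -0.03, with 1 at an unadjusted p below 0.05 in each direction. Cdkn1a (p21) measured 12.28, 11.82, 12.03 and 11.97 in LysMCre;Arntfl/fl arrays and 12.43, 12.17, 12.19, 12.41 and 12.39 in LysMCre arrays (log2 fold change -0.29, limma adjusted p = 0.307). Cdkn1c (p57) had higher values in every LysMCre;Arntfl/fl array (log2 fold change 0.19, limma adjusted p = 0.363). Among 20 G1 kinases, pocket proteins and partners (median -0.07), Rbl1 (p107), itself a product of E2F-controlled transcription, had -0.27 at an unadjusted p of 0.0109, and Ccnd3 (0.26) and E2f4 (0.22) had higher means with unadjusted p of 0.0194 and 0.0336. E2f2 had -0.31 (unadjusted p = 0.0518). None of the 9 measured macrophage growth signals reached an unadjusted p below 0.05, among them Csf1r (-0.17), the receptor for Csf1, Csf2 (-0.31) and Il4ra (-0.22).

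Markers of other cell types varied over the same arrays. All 18 neutrophil markers had a positive log2 fold change, 17 at an unadjusted p below 0.05 (against 6.74% of all genes higher) and 1 called (Ngp). Their mean was 9.64, 9.56, 10.33 and 10.25 in LysMCre;Arntfl/fl arrays and 8.30, 8.02, 8.17, 9.40 and 9.01 in LysMCre arrays. LysMCre;Arntfl/fl replicate 1 and LysMCre replicate 3 each had the highest mitosis mean and the second lowest neutrophil mean of their genotype. LysMCre;Arntfl/fl replicate 2 was the lowest of its genotype for both. LysMCre replicates 4 and 5 had the highest neutrophil means of LysMCre, with mitosis means of 7.20 and 7.26. LysMCre replicates 1 and 2 had lower neutrophil means and the lowest mitosis means of LysMCre (6.80 and 6.99). The 8 granulocyte progenitor markers, of cells that divide in bone marrow, had a median log2 fold change of 0.08, with 2 higher at an unadjusted p below 0.05 and 0 lower. These were Chil3, which macrophages also express, at 2.25 (limma adjusted p = 0.0896) and Cebpe, a granulocyte transcription factor, at 0.20 (limma adjusted p = 0.418), while Mpo, Elane, Prtn3 and Ctsg were between 5.69 and 6.57 in all LysMCre;Arntfl/fl arrays and between 5.41 and 6.56 in all LysMCre arrays. Epithelial markers (12 genes) averaged 8.70, 8.20, 8.25 and 8.95 in LysMCre;Arntfl/fl arrays and 7.25, 7.13, 9.21, 9.65 and 8.49 in LysMCre arrays, so that LysMCre replicates 1 and 2, the lowest of their genotype for the mitosis mean, were also lowest for epithelial markers. B and plasma cell markers (7 of 8 measured) averaged 8.14 to 8.83 in LysMCre;Arntfl/fl arrays and 8.44 to 9.20 in LysMCre arrays, with the highest values in LysMCre replicates 3 and 5. Of these 7 markers, 5 had a negative log2 fold change (48% of all genes), the largest being Tnfrsf17 (-0.88) and Mzb1 (-0.62). The other 2, Ms4a1 (0.09) and Pax5 (0.02), were positive. An unadjusted p below 0.05 was reached by 1 of 12 epithelial, 1 of 7 B and plasma cell and 1 of 6 T cell markers, each lower in LysMCre;Arntfl/fl macrophages, against 6.69% of all genes. Of 12 macrophage markers, 4 (33.3%) reached it with lower values, against 6.69% of all genes. Their log2 fold changes were -0.83 (Cx3cr1), -0.56 (C1qa), -0.52 (C1qc) and -0.43 (C1qb), and 1 macrophage marker was higher (Itgam, 0.44). It was also reached by 1 lower and 1 higher of 6 monocyte markers. Of 8 fibroblast and endothelial markers, 1 was lower and 2 were higher at this level, with 6.74% of all genes higher. With the mean of each list as a covariate, the median log2 fold change of the mitosis genes was -0.66 (neutrophil), -0.45 (epithelial) and -0.39 (B and plasma cell), and the number of mitosis genes at an unadjusted p below 0.05 was 16, 26 and 15 of 30. Top2a, Ccna2 and Ect2 were called with the epithelial covariate (limma adjusted p = 0.0321, 0.0262 and 0.0368), and no cell cycle gene was called with the others. For the S phase genes the medians were -0.33, -0.30 and -0.23 and the counts 5, 10 and 4 of 17. The neutrophil mean was higher in every LysMCre;Arntfl/fl array than in any LysMCre array. The fit with this covariate therefore cannot separate neutrophil signal from genotype. The part of each cell type in the cell cycle values was not tested beyond these fits, and division of the macrophages themselves cannot be told apart from that of other sorted cells.

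**Figure D5:**
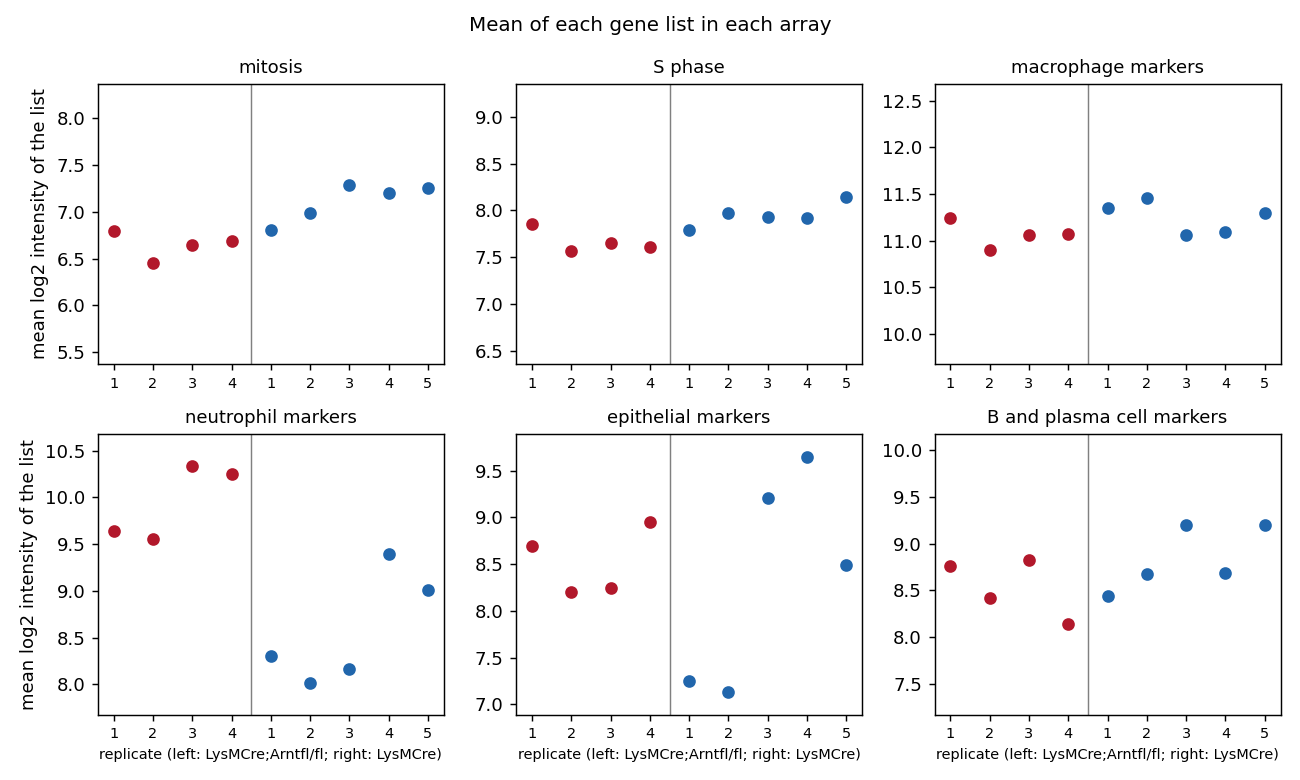
Mean log2 intensity of the mitosis and S phase genes and of 4 marker lists in each array, LysMCre;Arntfl/fl replicates left of the line and LysMCre replicates right of it, each panel spanning the same height. The mitosis means were 6.45 to 6.79 in LysMCre;Arntfl/fl arrays and 6.80 to 7.29 in LysMCre arrays, and the epithelial means of LysMCre arrays ranged from 7.13 to 9.65.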

How the data were processed

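Per the labels and the methods, 1.5 ng of total RNA per mouse was amplified, labelled and hybridised to Affymetrix mouse gene arrays. The authors made the deposited log2 values with RMA (Expression Console), which corrects background, quantile-normalizes and summarises probes. Partek 6.6 is named in the submitters' processing notes, and the methods used SAM. The deposited table held 34365 probe sets in 9 arrays, with values from 2.26 to 14.27 and array medians from 5.98 to 6.04. Of these, 23521 carried 1 symbol, 1820 several and 9024 none, and those with several were tested without being named for a gene. Pairs of arrays correlated at 0.976 to 0.990 and 0 pairs were identical.

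LysMCre;Arntfl/fl was compared with LysMCre over all probe sets with the lmFit and eBayes functions of limma 3.58.1 (R 4.3.3). The script was tested on simulated data. The labels number the biological replicates of each genotype and name no pairing, so the arrays were treated as unpaired. After removal of genotype means, arrays with the same number correlated at -0.12, -0.07, -0.0005 and 0.17. Arrays with different numbers were not compared in this way, so these values do not decide whether the numbers pair the arrays. The members, further gene lists, marker lists and promoter elements were chosen with earlier results of these data known. Values in every array are given for Mki67, Top2a, Cdk1, Ube2c, Shcbp1, Pcna, Rrm2, Mcm5, Ccnd1, Ccnd2 and Ccne1, for the 4 mitosis and 4 S phase genes with the largest absolute log2 fold change, and for Arnt, with up to 4 genes of each further list. Cdkn1a, Csf1r and the named marker genes were chosen after their values were seen. The alternatives were variance trend and robust variances, array weights, a SAM-type score with 100 permutations, an unpaired t-test, median centring, quantile normalization, filters on brightness and annotation, the mean of a gene's probe sets, an adjusted p below 0.1, the replicate block, marker covariates and leaving out each array. The number of arrays sets the precision. Antibody, RT-qPCR and pathway data were not analysed here.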

Additional observations from a re-analysis of the deposited data

Results flagged for a closer look

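Of 114 sets of arrays checked (the 50 measured cell cycle genes, Arnt and 6 list means, in each genotype), 5 had 1 array far from the others of its genotype, as a gap of the extreme array to its nearest neighbour divided by the range of the genotype. Chance alone marks about 1 in 20 such sets. Tpx2, the spindle microtubule nucleator, was marked in both genotypes. LysMCre;Arntfl/fl replicate 4 was its highest array of that genotype at 7.10, with the next at 6.92 (gap over range 0.876), and LysMCre replicate 1 was its lowest of that genotype at 6.98, with the next at 7.49 (0.710). Mcm3 was highest in LysMCre;Arntfl/fl replicate 1 at 8.34, with the next at 7.67 (0.836). Pcna was lowest in LysMCre;Arntfl/fl replicate 4 at 11.46, with the next at 11.64 (0.913). Ccnd2 was lowest in LysMCre;Arntfl/fl replicate 2 at 8.76, with the next at 9.51 (0.830).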

How the results depend on the processing

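The number of probe sets called, 101 in all, moved most. It was 167 with array weights, 204 among the brighter probe sets and 303 at an adjusted p below 0.1. An unpaired t-test after Benjamini-Hochberg called 4. With the neutrophil mean as a covariate 0 were called, and with the B and plasma cell mean 1. The B and plasma cell covariate and the epithelial one were chosen after seeing the data. Leaving out 1 array gave 1 (without LysMCre replicate 5) to 149 calls (without LysMCre replicate 4), with 4, 5 and 6 without LysMCre;Arntfl/fl replicates 3, 2 and 4, 5 without LysMCre replicate 3, and 31 and 56 without LysMCre replicates 2 and 1. A fit with the replicate number as a block left out LysMCre replicate 5, which has no array of the same number, and called 5 probe sets. The labels do not name these numbers as pairs. In this fit Gins2 turned to 0.061, the same value as without LysMCre replicate 5 and with no block.

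Arnt was not called by an unpaired t-test after Benjamini-Hochberg (adjusted p = 0.107). Nor was it called with the replicate block, which left out LysMCre replicate 5 (limma adjusted p = 0.138). It was called by the SAM-type score (q-value 0.0167).

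At an adjusted p below 0.1, Top2a and Kif11 (limma adjusted p = 0.0558 and 0.0636) passed with more than a 1.5-fold difference. At 0.05, cell cycle genes were called by some alternatives, Top2a by 7 of them (limma adjusted p 0.0321 to 0.0473, and the SAM-type score at 0.0492). Kif11 was called among brighter probe sets, 1-symbol probe sets, gene means and without LysMCre replicate 1 (adjusted p = 0.0373), as was Tpx2 in the last. Ccna2 and Ect2 were called with the epithelial covariate (adjusted p = 0.0262 and 0.0368), and Cdc6 without LysMCre;Arntfl/fl replicate 1 (adjusted p = 0.0423 from limma). The count of mitosis genes at an unadjusted p below 0.05 was 15 to 25 without 1 array and that of S phase genes 6 to 10, and their medians ranged from -0.51 to -0.39 and from -0.40 to -0.24. The neutrophil covariate, whose values did not overlap between genotypes, moved the S phase count to 5 and the mitosis median to -0.66. The B and plasma cell covariate moved the S phase count to 4. Direction turned for Bub1 (0.055) and Mcm3 (0.012) with the neutrophil covariate and for Plk1 (0.014), Aurka (0.025), Kif20a (0.020) and Gins2 (0.054) with the B and plasma cell covariate. Without 1 array Plk1 ranged from -0.35 to 0.033, Kif20a from -0.19 to 0.0060 and Gins2 from -0.14 to 0.061. The cause of these changes was not tested.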
